A study of Rattus norvegicus with 6 samples.

Results

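Heat shock proteins and their DNAJ partners form the main protein-folding machinery of the cell, and their genes were followed here in the vestibular sensory epithelium of rats given streptomycin, an aminoglycoside antibiotic that is toxic to inner ear hair cells. The members were chosen by name: protein-coding genes of the HSPA, HSPB, HSPD, HSPE, HSPH and HSP90 families, the heat shock factors Hsf1, Hsf2 and Hsf4, and the DNAJA, DNAJB and DNAJC families. This rule took 76 of the 32883 genes in the count table. A count was present for 73 members, and Hspb3, Dnajb8 and Dnajc5g were at 0 in every library. An adjusted p-value was obtained for 72 members, all but those 3 and Hspb9, which had at most 4 counts in any library.

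The study compared 2 groups of Long-Evans rats. The STREP animals received 500 mg/kg of streptomycin subcutaneously each day for 6 weeks from postnatal day 21, and the Control animals received the vehicle, PBS, so both groups shared the strain and the vehicle. Each group had 3 animals, of which 2 were male and 1, replicate 3, was female. By the protocol each library held the utricles and cristae of 1 animal, and libraries are called animals below on that ground. The titles of STREP replicates 1 and 2 share a number and differ in letters that are not explained, so that the labels alone do not show them as unrelated. If they shared an animal or a cage, the p-values would be too small. The RNA came from hair cells, supporting cells and the other cells of the dissected tissue together. Across 12131 genes, log2 counts of STREP replicates 1 and 2 correlated at 0.966, within the 0.951 to 0.969 of all pairs in a group, though genes are not independent replicates.

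HSP70 proteins bind unfolded stretches of other proteins and release them in a cycle driven by ATP. The DNAJ proteins, also called HSP40, deliver clients and start ATP hydrolysis, exchange factors such as the HSP110 proteins reset the cycle, and HSP90 finishes the folding of kinases and receptors. Small heat shock proteins hold damaged proteins in a soluble state. Heat shock factor 1 drives many of the cytosolic members when unfolded protein accumulates, whereas the endoplasmic reticulum and mitochondria have their own members with their own stress responses. HSP70 is known from the inner ear as a protein that protects hair cells against aminoglycosides.

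The upstream sequences of a few members are shown to let the short elements by which these separate stress responses are usually recognised be seen in place. They are RefSeq sequences of the 250 bases before the gene start, with matches in capitals. Hspa9 and Dnajb2 are the members that were higher in the STREP group, Hsph1 is a typical cytosolic heat shock gene, and Hspa5 is the main HSP70 of the endoplasmic reticulum.
Hspa9, GRCr8 chr18:26828399-26828648, minus strand: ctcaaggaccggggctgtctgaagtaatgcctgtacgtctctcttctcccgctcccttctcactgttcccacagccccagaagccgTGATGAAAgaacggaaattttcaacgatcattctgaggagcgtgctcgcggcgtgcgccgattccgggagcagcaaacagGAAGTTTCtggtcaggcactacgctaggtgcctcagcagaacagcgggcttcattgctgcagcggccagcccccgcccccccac
Dnajb2, GRCr8 chr9:84179518-84179767, plus strand: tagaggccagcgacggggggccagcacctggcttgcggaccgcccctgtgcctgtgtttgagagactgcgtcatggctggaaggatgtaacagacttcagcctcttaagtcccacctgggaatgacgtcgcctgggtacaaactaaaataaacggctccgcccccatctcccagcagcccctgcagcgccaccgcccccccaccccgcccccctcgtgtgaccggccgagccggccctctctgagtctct
Hsph1, GRCr8 chr12:10427118-10427367, plus strand: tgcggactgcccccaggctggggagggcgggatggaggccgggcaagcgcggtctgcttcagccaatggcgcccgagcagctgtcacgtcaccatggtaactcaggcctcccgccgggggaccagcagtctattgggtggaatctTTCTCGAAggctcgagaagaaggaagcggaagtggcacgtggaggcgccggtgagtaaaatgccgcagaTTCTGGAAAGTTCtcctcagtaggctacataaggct
Hspa5, GRCr8 chr3:38452766-38453015, plus strand: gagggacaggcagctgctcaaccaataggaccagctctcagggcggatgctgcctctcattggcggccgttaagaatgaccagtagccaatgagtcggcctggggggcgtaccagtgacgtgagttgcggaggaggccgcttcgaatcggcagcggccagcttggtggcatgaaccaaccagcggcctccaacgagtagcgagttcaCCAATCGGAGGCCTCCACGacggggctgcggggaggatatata
The capitals in Hsph1 mark pairs of heat shock units, GAANNTTC or TTCNNGAA, of which the 2 nearest the gene start overlap. The capitals in Hspa5 mark an endoplasmic reticulum stress element, CCAAT and CCACG separated by 9 bases. Hspa9 held 1 heat shock pair, at bases -84 to -77, and 1 match to TGATGNAA, a form of the amino acid response element, at bases -164 to -157. No match to these letters was in the Dnajb2 window.

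The libraries differed in depth between the groups, with 48568191 to 59906048 counts in the Control animals and 29333584 to 33744909 in the STREP animals. At these depths 3 counts correspond to 0.0501 to 0.102 CPM, which covers counting error only. The 12 hair cell markers examined were present in every library. The members together took 1.47 ± 0.258% of the counts in the Control group and 1.41 ± 0.0977% in the STREP group (SD, n = 3 each).

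Few members differed between the groups. A gene was called when its DESeq2 adjusted p-value, corrected over all genes, was below 0.05 and its fold change was above 1.5. Of the 72 members tested, Hspa9 and Dnajb2 were called higher, beside 1.87% of all genes tested, and Dnajc5b was called lower, beside 1.37%. Hspa14 also passed the adjusted p-value with a smaller fold change, giving 4 members past it, beside 3.72% of all genes. With the counts of STREP replicates 1 and 2 summed as 1 animal, an analysis added after the data had been seen, Hspa9 and Dnajb2 were again called higher (adjusted p of 7.08e-06 and 0.0132), Dnajc5b and Hspa14 no longer passed (0.0693 and 0.0626), and Dnaja4 was called lower (0.0498). With the 1.5-fold limit placed inside the DESeq2 test, 0 members were called. Without Control replicate 2 the counts were again 2 higher and 1 lower. With edgeR and a count filter, 1 of 71 members was called, beside 1.77% of the genes it tested, and that member was Hspa9. When library totals set the scale, 2 members were called higher and 0 lower. An unadjusted p under 0.05 was found for 14 of the 72 members by DESeq2 and for 13 of the 71 by edgeR with a count filter. By DESeq2, 3 of these were cytosolic DNAJA or DNAJB genes. Another 2 each were cytosolic HSP70 genes, exchange factors, heat shock factors and other DNAJC genes. The share of all genes at that level was not counted.

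By median, the changes of the members were no larger than those across all genes. The log2 fold change was above 0 for 41 members and below 0 for 31, and its median was 0.03 against 0.01 for all genes tested. The median absolute log2 fold change was 0.18 for members and 0.22 for all genes, and 40 members had one under 0.2. These medians were not matched for abundance. An average of 100 normalised counts or more was reached by 68 members, where 72 were tested, and by 12131 genes, where 16250 were tested. All 3 STREP animals were above all 3 Control animals for 7 members, beside 9.12% of all genes, and below them for 8 members, beside 8.63%. Each of these shares was near that of all genes.

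**Figure D1:**
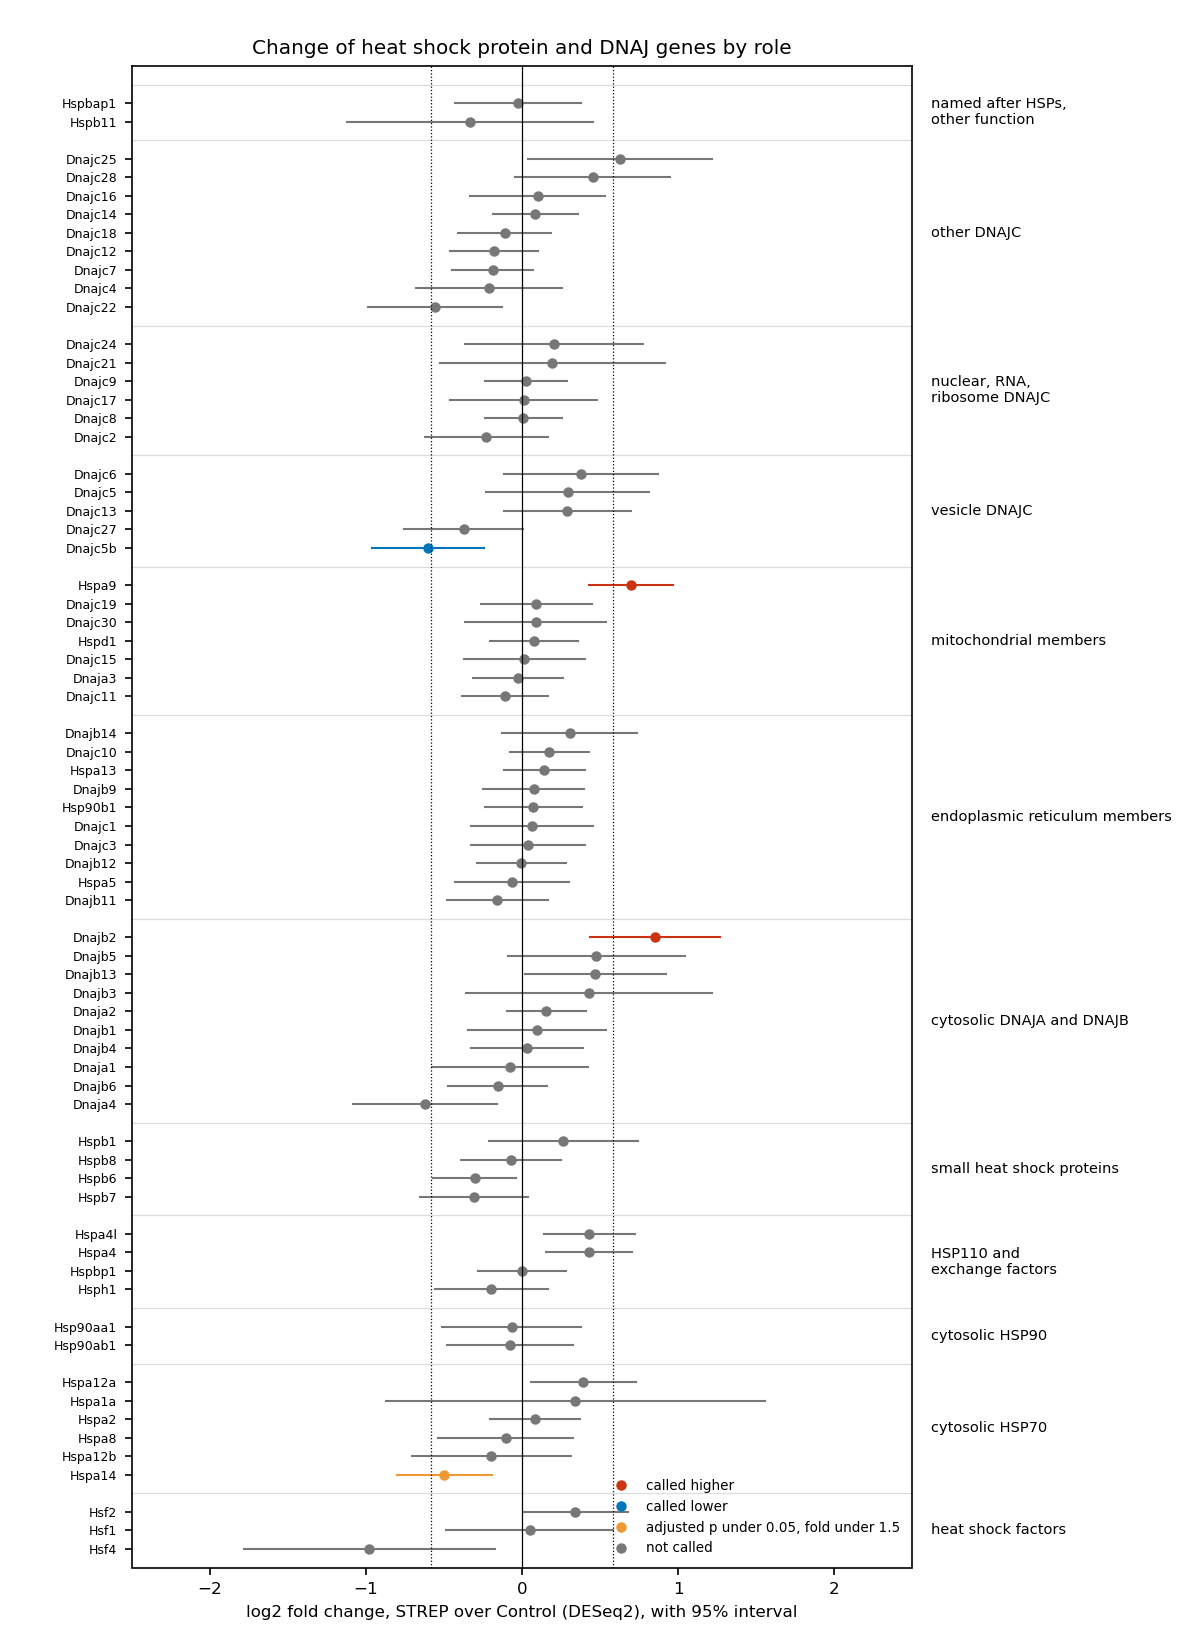
Log2 fold change of STREP over Control from DESeq2 for the 68 members that averaged 100 normalised counts or more, grouped by role; points are estimates, lines are 95% intervals and dotted lines mark a 1.5-fold change. Most intervals include 0, and Hspa9, Dnajb2 and Dnajc5b are the members called.

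The mitochondrial members were led by Hspa9, or mortalin, the HSP70 of the mitochondrial matrix that pulls imported proteins through the inner membrane. Its normalised counts were 8112, 8254 and 7899 in the Control animals and 14280.5, 11229.7 and 13874 in the STREP animals. The Control values were tightly grouped, and each STREP animal was above all of them. The group values were 8088 ± 178 in the Control group and 13128 ± 1657 in the STREP group (SD, n = 3 each), a log2 fold change of 0.70 ± 0.14 (SE) with an adjusted p of 3.64e-05 by DESeq2. Hspa9 was called in each of the 15 alternative analyses that kept this call rule, with log2 fold changes from 0.63 to 0.80. It was not called with the 1.5-fold limit inside the test, where its unadjusted p was 0.406.

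The other mitochondrial members did not pass the test. Hspd1, the chaperonin HSP60 that folds imported proteins, gave 7594, 6217 and 6968 in the Control animals and 6534, 7313 and 8089.8 in the STREP animals, with a log2 fold change of 0.08 ± 0.14 (SE) and an adjusted p of 0.938. The groups overlapped throughout. Hspe1, the lid of that chaperonin, had 18 to 82 counts per library and a log2 fold change of 0.08 ± 0.68 (SE), so only large changes were detectable at this depth. RefSeq names 20 pseudogenes of Hspd1, 2 of Hspa9 and 1 of Hspe1, and reads shared with such copies make these levels uncertain. Dnaja3, a DNAJ partner of mortalin, stood at -0.03 on the log2 scale, and Dnajc19, a part of the import motor, at 0.09. Of the 8 mitochondrial members, 1 was higher and 0 were lower, beside 1.87% and 1.37% of all genes, with a median of 0.08. Among 11 other genes for mitochondrial proteases and import, DESeq2 called 0, edgeR called 0 and 0 had an unadjusted p under 0.05.

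Among the cytosolic DNAJA and DNAJB genes, which supply clients to HSP70, the called member was Dnajb2. It encodes a neuron-enriched cochaperone, HSJ1, that binds ubiquitin and passes clients to the proteasome. Its normalised counts were 4534, 2809 and 5059 in the Control animals and 6538, 7457 and 8408 in the STREP animals. The lowest Control value was that of replicate 2, and all STREP animals were above all Control animals. The log2 fold change was 0.85 ± 0.21 (SE) with an adjusted p of 0.00306 by DESeq2, and without Control replicate 2 it was 0.64 with an adjusted p of 0.00898. The call was lost in edgeR, with an adjusted p of 0.0736 with a count filter and 0.0533 without one.

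Dnaja4, a cytosolic type I partner of HSP70, lay on the other side of 0 without passing the test. Its normalised counts were 857, 791 and 962 in the Control animals and 407, 723 and 562 in the STREP animals, with the groups not overlapping, and the log2 fold change was -0.62 ± 0.24 (SE) with an adjusted p of 0.148. Without STREP replicate 2, its highest STREP animal, the log2 fold change was -0.85 and Dnaja4 was called lower with an adjusted p of 0.0103. Dnajb5 and Dnajb13, a DNAJ protein of motile cilia, were at 0.48 and 0.47 on the log2 scale, with adjusted p of 0.552 and 0.373. Of the 11 tested genes of this class, 7 were above 0 and 4 below, with a median of 0.10.

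**Figure D2:**
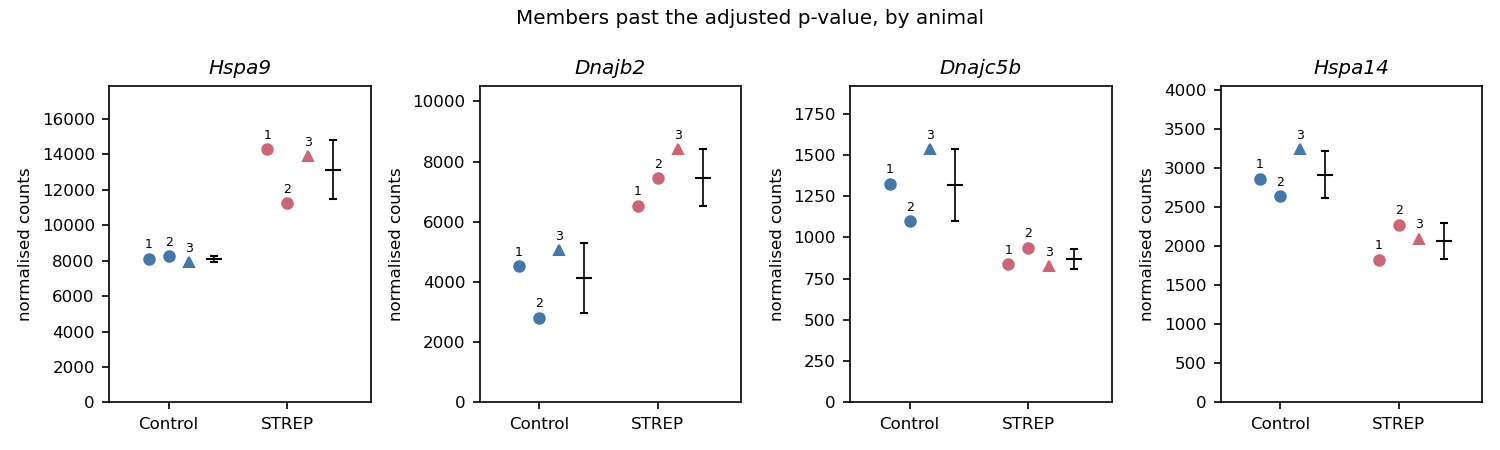
Normalised counts of the 4 members past the adjusted p-value in each animal, with replicate numbers beside the points; circles are males, triangles are females, and the black marks are means with SD. The STREP animals are above the Control animals for Hspa9 and Dnajb2 and below them for Dnajc5b and Hspa14.

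The DNAJC members of vesicles include the cysteine string proteins, which keep the release machinery of synaptic vesicles folded. Dnajc5b, the beta form, had normalised counts of 1326, 1098 and 1534 in the Control animals and 839, 937 and 826 in the STREP animals. Every STREP animal was below every Control animal, the log2 fold change was -0.60 ± 0.18 (SE), and the adjusted p by DESeq2 was 0.0301. This was the least stable of the calls. It was kept in 6 of the 15 alternative analyses that kept the call rule, and was lost in edgeR (adjusted p of 0.0996 with a count filter), with library totals as the scale (0.345), in males alone (0.49), after thinning all libraries to the smallest total (0.0592), and without Control replicate 1 (0.129), Control replicate 3 (0.231), STREP replicate 1 (0.153) or STREP replicate 3 (0.103).

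The alpha form, Dnajc5, had normalised counts of 389, 232 and 341 in the Control animals and 403, 338 and 439.8 in the STREP animals, with overlapping groups and a log2 fold change of 0.29 ± 0.27 (SE) (adjusted p of 0.792). Dnajc6, or auxilin, which uncoats clathrin vesicles with HSP70, had a log2 fold change of 0.38 ± 0.25 (SE) (adjusted p of 0.623). Both were thus above 0 without passing the test, whereas Dnajc5b was below it.

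Hair cell markers were compared beside these values and went in both directions, with 5 of the 12 tested past the adjusted p-value. Of the 12, 1 was called higher, Gfi1, beside 1.87% of all genes, and 2 lower, Pvalb and Strc, beside 1.37%. Myo7a and Lhfpl5 also passed the adjusted p-value, at log2 fold changes of -0.49 and -0.45. Neither passed it in edgeR with a count filter. Neither kept its result with library totals as the scale, in males alone or without STREP replicate 1. The same held for Myo7a without Control replicate 1, and for Lhfpl5 without Control replicate 2, Control replicate 3 or STREP replicate 2. Such a change can be a loss of the adjusted p-value or a fold change now above 1.5, and these were not separated. edgeR called 2 of the 12, and the Strc call was lost in edgeR, with library totals as the scale, and without any 1 of the 3 Control animals or STREP replicate 1. The summed normalised counts of the 12 were 60840 to 67200 in the Control animals and 53750 to 63280 in the STREP animals. Fewer hair cells and less RNA per hair cell cannot be told apart in such bulk samples, and the part of either in the Dnajc5b value was not tested. The 8 Schwann cell markers summed to 246800 to 341700 in the Control animals and 129800 to 275400 in the STREP animals. Of these, 1 was called lower, Prx, beside 1.37% of all genes. Its groups overlapped, and the call was lost in edgeR, which called 0 of the 8, with library totals as the scale, in males alone, and without any 1 of the 3 Control animals, STREP replicate 2 or STREP replicate 3. The dark cell markers summed to 46010 to 51490 and 31990 to 38880, and the 12 supporting cell markers to 577700 to 743000 and 646000 to 1122000, both with 0 called by DESeq2 and by edgeR and with 3 and 4 at an unadjusted p under 0.05 by DESeq2. The dark cell marker Slc12a2 passed the adjusted p-value at a log2 fold change of -0.55. Slc12a2 did not pass in edgeR with a count filter. Its result also changed, as a loss or as a fold change now above 1.5, with library totals as the scale. The same held without Control replicate 1, Control replicate 2, STREP replicate 1 or STREP replicate 2. Of the 8 macrophage, 5 melanocyte, 6 fibroblast and 4 endothelium and blood markers tested, DESeq2 and edgeR called 0, with 2, 2, 1 and 0 at an unadjusted p under 0.05 by DESeq2. The part of these cells in the members' values was not tested.

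Among the cytosolic HSP70 genes, Hspa14 was lower. It encodes an HSP70-like protein that works on the ribosome with the DNAJ protein Dnajc2 on newly made chains. Its normalised counts were 2864, 2644 and 3241 in the Control animals and 1825, 2276 and 2096 in the STREP animals. The groups did not overlap, and the log2 fold change was -0.50 ± 0.15 (SE) with an adjusted p of 0.0393 by DESeq2, so the fold stayed under 1.5. It passed the adjusted p-value in 7 of 15 alternative analyses, and the edgeR value with a count filter was 0.118. Dnajc2 had a log2 fold change of -0.23 ± 0.20 (SE) with overlapping groups and an adjusted p of 0.775.

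Of the other cytosolic HSP70 genes, Hspa2, best known from the testis, stood at 0.08 on the log2 scale, with an adjusted p of 0.93. Hspa12a, a distant relative, gave 711, 896 and 795 in the Control animals and 1118, 1048 and 987 in the STREP animals, with groups that did not overlap and an adjusted p of 0.259. Hspa1l had at most 69 counts in a library and none in Control replicate 2. None of these was called.

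For the heat-inducible cytosolic chaperones, no difference between the groups was larger than the spread between animals, and none passed the test. Hspa1a, the HSP70 made in quantity under heat stress, gave 2469.5, 753 and 2711 in the Control animals and 1507, 3438 and 2577 in the STREP animals. Its highest Control value was 3.6 times its lowest, the highest of all 6 values was a STREP animal and the lowest a Control animal. The log2 fold change was 0.34 ± 0.62 (SE) with an adjusted p of 0.937, and its 95% interval of -0.88 to 1.56 was among the widest of the abundant members.

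Hsph1, the HSP110 exchange factor induced with it, gave 11564, 7364 and 11211 in the Control animals and 7968, 8832 and 9502 in the STREP animals, with a log2 fold change of -0.20 ± 0.18 (SE). Dnajb1, the inducible HSP40, gave 4783, 3563 and 6101 in the Control animals and 3842, 5222 and 6371 in the STREP animals, with a log2 fold change of 0.10 ± 0.23 (SE). Hspb1, or HSP27, the small heat shock protein that stabilises actin, gave 4618, 2895 and 5051 in the Control animals and 3551, 5149 and 6407 in the STREP animals, with a log2 fold change of 0.27 ± 0.24 (SE). In each of the 3 genes the lowest value of the Control group was replicate 2, and the groups overlapped, with adjusted p of 0.804, 0.961 and 0.796.

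The abundant constitutive chaperones also had overlapping groups. Hspa8, the standing HSP70 of the cytosol that also strips clathrin from vesicles, gave 89341, 74045 and 116435 in the Control animals and 74225, 69494 and 116546 in the STREP animals, with a log2 fold change of -0.10 ± 0.22 (SE). Hsp90ab1, the constitutive HSP90, gave 130399, 115154 and 158041 in the Control animals and 106471, 105150.5 and 171475 in the STREP animals, with a log2 fold change of -0.07 ± 0.21 (SE). Hsp90aa1, the inducible HSP90, gave 17373, 10549.6 and 22150.4 in the Control animals and 14142, 16229.7 and 17435 in the STREP animals, with a log2 fold change of -0.07 ± 0.23 (SE). The same held for Dnaja1, a constitutive partner of Hspa8, at -0.08 on the log2 scale. RefSeq names 33 pseudogenes of Hspa8, 23 of Hsp90ab1 and 16 of Hsp90aa1, so that reads may be shared with copies. It also names 4 of Dnaja1, 1 of Hspa14 and 1 of Dnaja4. The count table had no row for Hspa1b, a near-identical copy of Hspa1a.

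**Figure D3:**
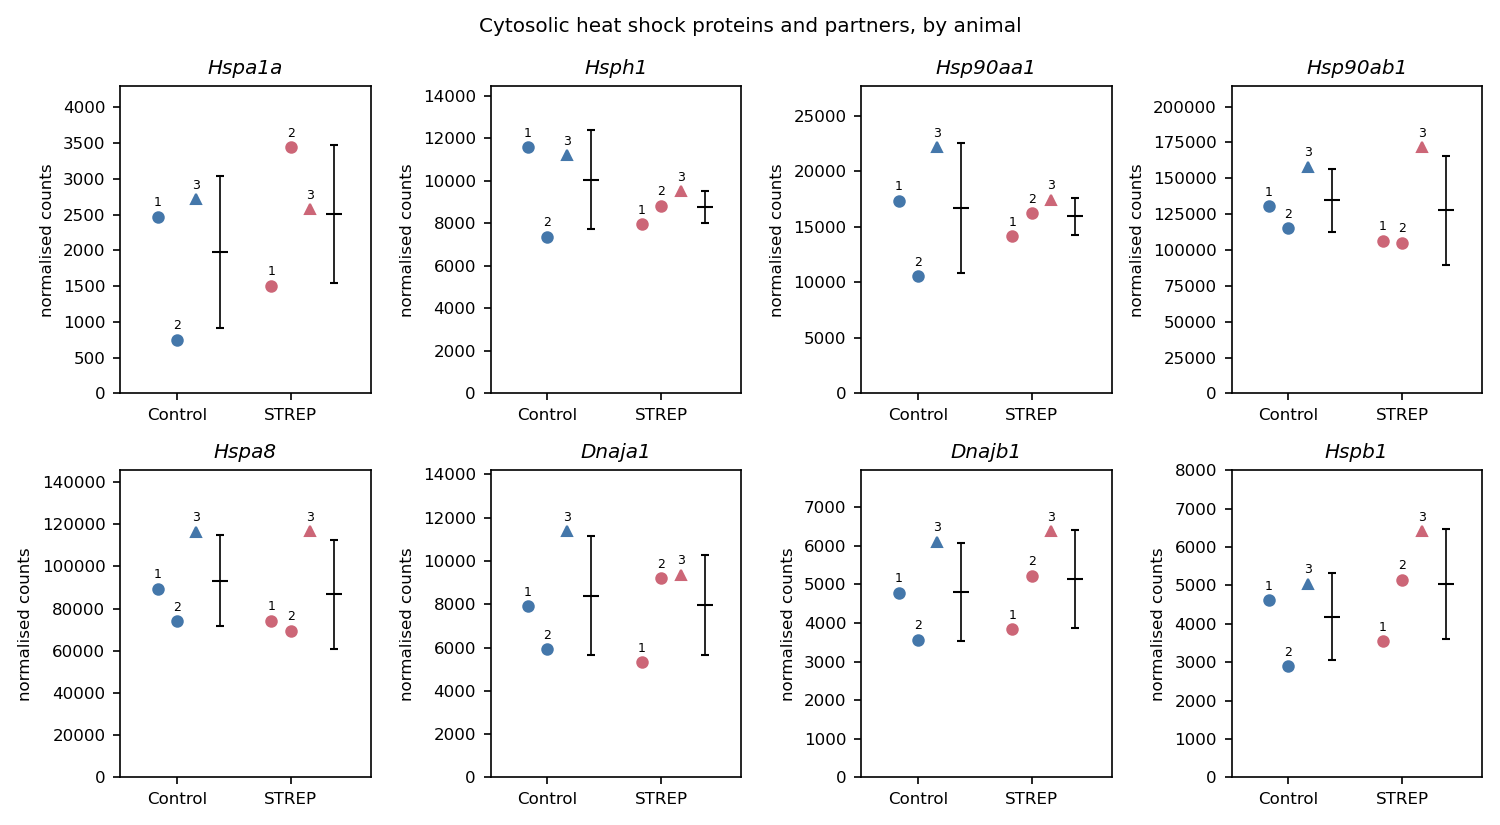
Normalised counts of 8 cytosolic chaperones in each animal, with replicate numbers beside the points; circles are males, triangles are females, and the black marks are means with SD. The groups overlap in every panel, and Control replicate 2 is the lowest Control animal in each.

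Control replicate 2 was the lowest Control animal for all 8 of these genes. Across the 71 members that averaged 10 normalised counts or more, it was the lowest for 49, or 69%, beside 33.9% of all genes at that level. Its total count, 48568191, was near that of Control replicate 3, 48999426. Without this animal the log2 fold changes of the 8 genes ran from -0.38 to 0.06, with 1 above 0, against -0.20 to 0.34, with 3 above 0, when it was included. Neither set had a member past the adjusted p-value. The within-group standard deviation of log2 counts was 0.27 to 0.84 for these 8 genes, against a median of 0.21 for the members that averaged 100 or more.

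The females stood above the males for the most abundant cytosolic chaperones, a comparison made after these values had been seen. With sex and group in one DESeq2 model, Hspa8 was higher in females by 0.60 ± 0.13 on the log2 scale (adjusted p of 0.000939) and Hsp90ab1 by 0.53 ± 0.13 (adjusted p of 0.0047). In each group the female was above both males for both genes. These were the 2 members past the adjusted p-value of the 34 tested in that model, beside 3.64% of all genes tested, and without the filter on low counts their adjusted p were 0.00258 and 0.0136. The comparison rests on 1 female in each group. It was run with median-of-ratios scaling only, in which STREP replicate 3 had the smallest scaling factor, 0.669, at the largest STREP total, 33744909. In each group the female also had the highest sum of the supporting cell markers and of the CCT and prefoldin genes. The same held for the HSP90 cochaperones, the other genes driven by HSF1 and the PERK and ATF4 arm. It did not hold for the other lists, the hair cell, Schwann and dark cell markers among them. The part of the scaling in the 2 values was not tested. The interaction of sex and treatment passed in 0 of 69 members by DESeq2, with 0 at an unadjusted p under 0.05, beside 0.259% of all genes.

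Exchange factors and heat shock factors gave values that missed the threshold. Hspa4, an HSP110-type exchange factor, gave 2776, 2761 and 3274 in the Control animals and 4275, 3865 and 3716 in the STREP animals, and its groups did not overlap. Its log2 fold change was 0.43 ± 0.14 (SE) with an adjusted p of 0.0607. It passed the adjusted p-value with sex as a covariate (0.0473), in males alone (0.0311), without Control replicate 3 (0.023) and without STREP replicate 3 (0.038), and the edgeR value with a count filter was 0.152. Hspa4l, a close relative, also had groups that did not overlap, with a log2 fold change of 0.43 ± 0.15 (SE) and an adjusted p of 0.0832. Hspbp1, which releases nucleotide from HSP70, was at -0.002 on the log2 scale.

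Hsf1, the main driver of the heat shock response, gave 538, 286 and 386 in the Control animals and 381, 465 and 407 in the STREP animals, a log2 fold change of 0.05 ± 0.27 (SE). Hsf2 gave 629, 611 and 628 in the Control animals and 715, 790.3 and 863 in the STREP animals, with groups that did not overlap, a log2 fold change of 0.34 ± 0.17 (SE) and an adjusted p of 0.394. Hsf4, known for its role in the lens, was the lowest of the abundant members by fold. Its normalised counts were 190.2, 157 and 102 in the Control animals and 63.9, 63.7 and 102 in the STREP animals, a log2 fold change of -0.98 ± 0.41 (SE) with an adjusted p of 0.224. Its groups were separated only narrowly, by 102.3 in Control replicate 3 and 101.7 in STREP replicate 3. The transcript level of a heat shock factor does not report its activity, which is set largely after translation.

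Of the 5 small heat shock proteins tested, 1 had a log2 fold change above 0, Hspb1, and 4 below, with a median of -0.30. DESeq2 and edgeR called 0 of them, and 1 had an unadjusted p under 0.05 by each. Hspb6, or HSP20, gave 2981, 2934 and 3014 in the Control animals and 2177, 2599 and 2458 in the STREP animals. The groups did not overlap, at a log2 fold change of -0.30 ± 0.14 (SE) and an adjusted p of 0.278. Hspb8, which works with BAG3 to send clients to autophagy, stood at -0.07 on the log2 scale. Hspb9 had 4, 1 and 1 counts in the Control animals and 0 in each STREP animal, too few for a comparison. Hspb11 and Hspbap1, which carry the family name but are no small heat shock proteins, stood at -0.33 and -0.03.

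The endoplasmic reticulum members showed overlapping groups at high levels. Hspa5, or BiP, gave 131883, 84472 and 111711 in the Control animals and 95716, 93468 and 125044 in the STREP animals, with a log2 fold change of -0.06 ± 0.19 (SE) and a 95% interval of -0.43 to 0.30. Hsp90b1, or GRP94, gave 77680.1, 58592 and 79700.4 in the Control animals and 72215, 69262 and 85718 in the STREP animals, with a log2 fold change of 0.07 ± 0.16 (SE) and a 95% interval of -0.24 to 0.39. Both intervals lay inside the 1.5-fold limits in either direction. Of the DNAJ partners of BiP, Dnajb9 stood at 0.07, Dnajb11 at -0.16 and Dnajc3, which also restrains the stress kinase PERK, at 0.04 on the log2 scale. Over the 10 members the log2 fold changes ran from -0.16 to 0.31 with a median of 0.07. DESeq2 and edgeR called 0 of the 10, and 0 had an unadjusted p under 0.05 by either.

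None of the remaining DNAJC genes was called. The 6 nuclear, RNA and ribosome members had log2 fold changes from -0.23 to 0.20, and 0 were called by DESeq2 or edgeR, with 0 at an unadjusted p under 0.05. Among the other DNAJC genes, Dnajc25 gave 126, 111 and 162 in the Control animals and 206, 218 and 193 in the STREP animals, the highest log2 fold change outside the called genes among abundant members, 0.63 ± 0.30 (SE), with an adjusted p of 0.35. Dnajc22 gave 428, 411 and 353 in the Control animals and 270.3, 269 and 269 in the STREP animals, with a log2 fold change of -0.56 ± 0.22 (SE) and an adjusted p of 0.169. The groups did not overlap for either gene, and neither was called.

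The neighbouring folding genes had few calls, apart from one stress arm. The lists overlap, as several of the genes driven by HSF1 are also counted among the HSP90 cochaperones, exchange factors or CCT genes. Of 10 HSP70 exchange and release factors, 14 genes of the CCT chaperonin and prefoldin, 14 other heat shock genes driven by HSF1 and 21 folding and degradation genes of the endoplasmic reticulum under ATF6 and XBP1, DESeq2 called 0 in each list and edgeR called 0, with 1, 0, 2 and 1 at an unadjusted p under 0.05 by DESeq2. The last of these was Sel1l, a part of the degradation machinery, which passed the adjusted p-value at a log2 fold change of 0.47. Sel1l did not pass in edgeR with a count filter. Its result also changed, as a loss or as a fold change now above 1.5, with library totals as the scale and in males alone. The same held without Control replicate 2, Control replicate 3, STREP replicate 1 or STREP replicate 2. Of 14 HSP90 cochaperones, 1 was called, beside 1.87% of all genes, Fkbp5, a glucocorticoid-responsive cochaperone of steroid receptors, at a log2 fold change of 2.65 ± 0.81 (SE) and an adjusted p of 0.0332. Its normalised counts were 76.7, 20.4 and 171 in the Control animals and 762, 509.6 and 414 in the STREP animals. That call was lost with library totals as the scale, after thinning, and without Control replicate 1, STREP replicate 2 or STREP replicate 3.

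The genes listed here as the PERK and ATF4 arm, several of which serve amino acid supply, held most of the calls among the related lists. Of 18 tested, DESeq2 called 7 higher and 0 lower, beside 1.87% and 1.37% of all genes, edgeR called 6, and the median log2 fold change was 0.60. The list was chosen with earlier results of these data known, so these shares describe it and are not a test of enrichment. Mthfd2, a mitochondrial enzyme of folate metabolism, rose by 2.81 on the log2 scale and Chac1, which degrades glutathione, by 2.26. Atf4 itself rose by 0.79, Asns by 0.74, Trib3 by 0.98 and Atf3 by 1.56. The Trib3 call was lost in edgeR, with library totals as the scale, in males alone, and without Control replicate 2, Control replicate 3 or STREP replicate 1. Cebpb was the seventh, with 4.66 ± 3.59 normalised counts in the Control group and 178 ± 15.9 in the STREP group (SD, n = 3 each). Psat1 also passed the DESeq2 adjusted p-value (0.0367), at a log2 fold change of 0.44, giving 8 of the 18 past it, beside 3.72% of all genes. Psat1 was not called in edgeR, and its result also changed with library totals as the scale and in males alone. Among those not called were Ddit3, Ppp1r15a and the PERK gene Eif2ak3, at log2 fold changes of 0.38, 0.26 and 0.14. Their adjusted p by DESeq2 were 0.343, 0.561 and 0.906. Sesn2, at 0.52, missed the threshold with an adjusted p of 0.0549.

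The remaining lists were 10 cold-inducible and clock genes and 12 tested immediate early genes. Of the former, 2 were called higher, beside 1.87% of all genes, and 0 lower. They were Dbp and Nr1d2, at log2 fold changes of 0.93 and 0.82, and edgeR called 1, Dbp. The Dbp call was lost in males alone, and the Nr1d2 call there, in edgeR, and without Control replicate 1, Control replicate 3 or STREP replicate 3. Of the immediate early genes, DESeq2 and edgeR called 0, with 1 at an unadjusted p under 0.05 by each.

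**Figure D4:**
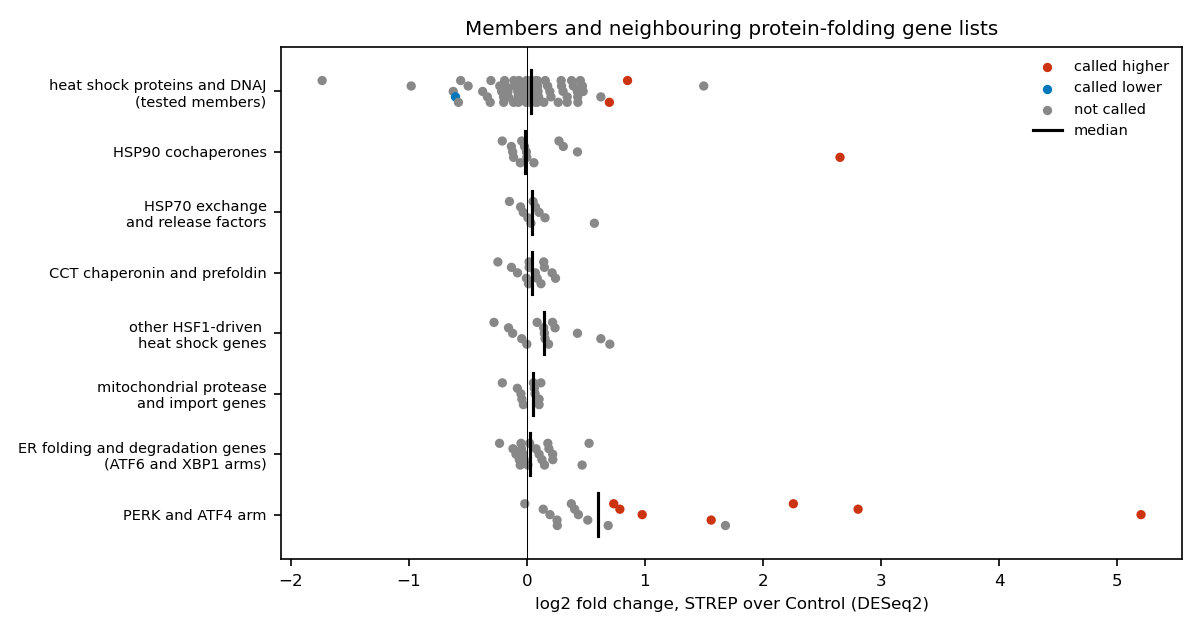
Log2 fold change of STREP over Control from DESeq2 for the 72 tested members and for 7 lists of related genes; each point is a gene, and the black bars are medians. The medians of the members and of the folding lists lie between -0.01 and 0.15, and that of the PERK and ATF4 arm is 0.60.

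The upstream elements shown above were searched on both strands in the 250 bases before the start of the 60 members with a RefSeq promoter entry. A heat shock pair was in 15 of the 60, or 25%, against 13.5% of 33469 promoters. Of the 14 tested members that held one, 6 had a log2 fold change above 0 and 8 below, with a median of -0.07. Of these, 1 was called higher, Hspa9, beside 1.87% of all genes. The endoplasmic reticulum stress element was in 3 members, Hspa5, Hsp90b1 and Dnajc3, against 0.0657% of all promoters, and none of these was called. TGATGNAA was in 3 members, or 5%, against 3.4% of all promoters, and these were Hspa9, Hspa14 and Hspb9. Of the 2 tested, Hspa9 was above 0 and Hspa14 below. The 1 called higher, beside 1.87% of all genes, was again Hspa9, so both elements share the same single call. A match in this window is a description of the letters and not of a bound site.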

How the data were processed

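RNA-seq libraries were made by the SMARTseq2 protocol, which uses oligo-dT priming and does not mark strand, so reads of a gene and an antisense partner cannot be separated. The authors aligned reads with STAR 2.5.3a and deposited expected counts per gene from RSEM 1.3.0. The deposited values were whole numbers. Members and gene lists were chosen with earlier results of these data known. Replicate numbers follow the order of deposit. All 32883 genes were fitted with DESeq2 1.42.0 in R 4.3.3 (Wald test, median-of-ratios scaling, independent filtering), with Benjamini-Hochberg adjustment. Genes named are those called, those past the adjusted p-value, the best known member of each role, the 3 highest and 3 lowest other members with a mean of at least 100, and called genes of other lists. A few others were named after their values were seen: Hspa4l, Hspa12a, Hspa1l, Hspb6, Hspb9, Hspb11, Hspbap1, Hspbp1, Dnaja3, Dnajc19, Dnajc2, Myo7a, Lhfpl5, Slc12a2, Sel1l, Psat1, Sesn2, Ddit3, Ppp1r15a and Eif2ak3. edgeR 4.0.16, other scalings, filters, thinning and omission of each animal were alternatives. The scripts were tested on simulated data, in which both tools made more false calls than their nominal rate and DESeq2 more than edgeR, so calls by DESeq2 alone are less certain than their adjusted p-values say. All libraries carried the same batch label. The p-values measure the spread between libraries, and the titles of 2 STREP libraries share a number. Protein sequences were not analysed here.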

Additional observations from a re-analysis of the deposited data

How the results depend on the processing

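Over the named members, 278 of 288 log2 fold changes kept direction and call under the alternatives other than leaving out 1 animal, 7 lost the call and 3 turned. Most named members were not called in the main fit, so for them keeping the call meant staying uncalled. All 7 losses were of Dnajc5b and Dnajb2. Hspa14 counted as kept, though its adjusted p was 0.118 in edgeR with a count filter, 0.44 with library totals and 0.359 in males alone. Of the 3 that turned, Hspe1 was -0.01 with library totals as the scale, and Hsp90aa1 and Dnaja1 were 0.12 and 0.069 in males alone. With edgeR, with and without a count filter, 1 member was called higher, 0 lower, and 1 passed the adjusted p-value. Library totals as the scale gave 0 lower and 2 past the adjusted p-value, and males alone and thinning gave 0 lower. With the 1.5-fold limit inside the DESeq2 test, 0 were higher and 0 lower. Leaving out each animal gave 2 higher throughout, 0 to 2 lower and 2 to 5 past the adjusted p-value. Among 192 such values, 160 were kept, 4 lost the call, 1 gained it and 27 turned. The 4 losses were of Dnajc5b, and the gain was of Dnaja4. For the genes that turned, the log2 fold changes ran from -0.15 to 0.31 for Hsf1, -0.048 to 0.64 for Hspa1a, -0.021 to 0.16 for Hspa2, -0.22 to 0.09 for Hspa5, -0.38 to 0.087 for Hspa8, -0.14 to 0.055 for Hspb8, -0.27 to 0.46 for Hspe1, -0.31 to 0.19 for Hsp90aa1, -0.34 to 0.057 for Hsp90ab1, -0.057 to 0.15 for Hsp90b1, -0.28 to 0.20 for Dnaja1, -0.086 to 0.30 for Dnajb1, -0.058 to 0.18 for Dnajb9 and -0.14 to 0.19 for Dnajc3. STREP replicates 1 and 2 summed as 1 animal, chosen after seeing the data, gave 2 higher, 1 lower and 3 past the adjusted p-value, with Dnaja4 in place of Dnajc5b as the lower member. The cause of these changes was not tested. The comparison of sexes gave 2 members with and without independent filtering, the latter chosen after seeing the data. No paired analysis was possible because the labels give no numbers that pair animals.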
